A study of Mus musculus with 2 samples.

Results

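The cells described are cultured costal-cartilage-derived stem cells (CDSCs) with high counts of Mmp13 and Comp, 454 of the 4543 cultured cells that passed a cell filter. They were chosen from the counts themselves. Barcodes passed the filter with 500 or more genes, 5000 or more unique molecular identifiers (UMIs, tags that mark single transcripts) and no more than 10% mitochondrial UMIs, and the score of each was the mean, over both genes, of the gene's share of the barcode's UMIs divided by the mean share over all kept barcodes. The top 10% by score are called members and were compared with the other 4089 cultured cells, the remaining 90%. In all, the series held 22694 barcodes in 2 libraries, 1 of primary and 1 of cultured CDSCs. The study isolated CDSCs by digesting the rib cartilage of neonatal C57BL/6J mice, either CD45.1 or ZsGreen, and sorting cells without the blood cell protein CD45 and with the integrin CD51. The primary library held these cells as sorted, and the cultured library held cells grown on plastic in minimum essential medium with serum to passages 2 to 3. The labels name bone marrow as the tissue of both libraries and CDSCs as the cell type, while the study's methods describe rib cartilage, and neither says which of the mouse lines or how many animals entered the cultured library. Members and other cells were cells of 1 culture and 1 library, so they are not replicates and their differences were not tested. The 95% intervals given are exact and describe only the error of counting.

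Mmp13 encodes collagenase 3, a secreted metalloproteinase that cuts the triple helix of type II and other fibrillar collagens. In the growth plate it is made by late hypertrophic chondrocytes and by osteoblasts, where it helps to clear cartilage matrix before bone is laid down, and it is also known from osteoarthritic cartilage. Comp encodes cartilage oligomeric matrix protein, the fifth member of the thrombospondin family, a secreted pentamer that binds collagens, fibronectin and matrilins and is abundant in cartilage, tendon and ligament. Thus the rule joins a matrix-degrading enzyme with a structural matrix protein.

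Mmp13 (ENSMUSG00000050578) lies on the plus strand of chromosome 9 (GRCm38, chr9:7272514-7283331), and Comp (ENSMUSG00000031849) on the plus strand of chromosome 8 (GRCm38, chr8:70373558-70382066). The Mmp13 promoter is shown because AP-1 and RUNX factors, well-known regulators of this gene, are among the genes compared below. That of Ibsp is shown because Ibsp had the highest ratio of the listed genes. Most Ibsp counts lay in 12 members, all of which also held Mmp13 counts. In all, 21 members had an Ibsp UMI and 181 a Mmp13 UMI. The sequences are the 250 bases before the RefSeq start on the plus strand of GRCm38.p6, chr9:7272264-7272513 for Mmp13 and chr5:104299037-104299286 for Ibsp, with capitals for matches to an AP-1 motif (TGANTCA) or a RUNX motif (AACCACA) on either strand.
Mmp13: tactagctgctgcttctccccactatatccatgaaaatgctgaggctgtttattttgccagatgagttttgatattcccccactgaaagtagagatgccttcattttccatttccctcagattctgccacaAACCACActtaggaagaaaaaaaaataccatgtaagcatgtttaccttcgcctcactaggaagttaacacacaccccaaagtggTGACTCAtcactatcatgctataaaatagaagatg
Ibsp: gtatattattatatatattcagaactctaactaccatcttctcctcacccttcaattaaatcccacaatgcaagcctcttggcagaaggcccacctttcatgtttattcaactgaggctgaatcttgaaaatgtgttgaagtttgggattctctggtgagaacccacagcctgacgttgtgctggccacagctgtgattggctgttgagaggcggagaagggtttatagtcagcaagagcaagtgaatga
In Mmp13, TGACTCA stood 35 to 29 bases and AACCACA 119 to 113 bases before the start, without overlap. In Ibsp neither set of letters was found in this window. Of 32536 promoter windows of the same length, 6.73% held TGANTCA, 4.41% held AACCACA and 0.344% held both. These matches are a description of letters and not of binding.

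As the rule required, both genes were far higher in members. Mmp13 stood at 287 CPM (summed counts of the gene, scaled to a total of 1000000 counts in the group; interval 280.6 to 294) in members and at 1.78 CPM (1.63 to 1.93) in the other cells, and Comp at 376 CPM (368 to 384) and 20.7 CPM (20.2 to 21.2). Their distributions differed. Mmp13 was held by few cells: 181 of 454 members had a UMI of it, the median member had 0 CPM and the highest 8822 CPM, and 10 cells held 34.4% of the 7391 Mmp13 counts of the kept cultured cells. Comp was spread: 433 members had a UMI, single members ranged from 0 to 1917 CPM with a median of 318 CPM, and 10 cells held 5.54% of the 15277 Comp counts. Members held 92.7% of all Mmp13 counts and 58.6% of all Comp counts. At the limit of the rule, the lowest member had a score of 1.761 with 11 Comp UMIs and no Mmp13 UMI, and the highest cell outside it had a score of 1.756 with 10 Comp UMIs and no Mmp13 UMI.

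The label "Mmp13 and Comp-high" held for the group more than for its single cells. UMIs of both genes were found in 160 members, of Comp without Mmp13 in 273 and of Mmp13 without Comp in 21. Of the top 10% of cells by Mmp13 alone and the top 10% by Comp alone, 454 each, 100 cells (22.0% of either group) were shared. Each group was 10% of all kept cells. Members made up 181 of the first and 369 of the second. Across the 4543 cells, the shares of both genes had a Pearson r of 0.0991 and a Spearman rho of 0.127, a weak relation in sparse counts of 1 library. Members were therefore also described by the larger of the terms in their score. In 115 members the Mmp13 term was larger (Mmp13-led, 988 CPM of Mmp13 and 178 CPM of Comp), and in 339 the Comp term was larger (Comp-led, 19.4 CPM of Mmp13 and 451 CPM of Comp). Both kinds follow from the rule.

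**Figure D1:**
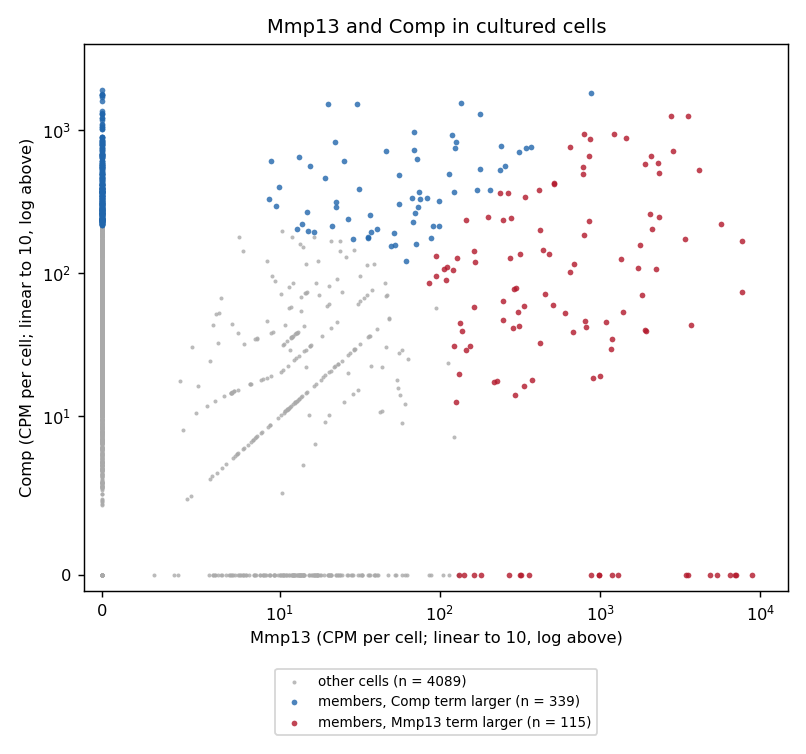
Mmp13 (x axis) against Comp (y axis) in single cultured cells, both in CPM and linear to 10 and logarithmic above, with 4089 other cells in grey, 339 Comp-led members in blue and 115 Mmp13-led members in red. Most members lie along the Comp axis without Mmp13, and the highest Mmp13 values, up to 8822 CPM, lie in Mmp13-led members.

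In the primary library Comp was higher and Mmp13 lower than in members. Comp stood at 2937 CPM (2928 to 2946) there with a UMI in 99.8% of 10959 kept cells, above its level in members, and Mmp13 at 0.149 CPM (0.0910 to 0.230) from 20 counts. Over the whole kept cultured library Comp stood at 46.4 CPM and Mmp13 at 22.5 CPM. The libraries differed in culture, preparation and sequencing together, which cannot be told apart.

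Members were shallower than the other cells, with a median of 46794 against 69038 UMIs and 7097 against 7861 genes per cell, and had nearly the same median mitochondrial share (2.55% against 2.33%). When every cell was thinned to 5000 UMIs, the medians were 2330 and 2277 genes. At that depth 25.1% of members and 0.954% of other cells had a Mmp13 UMI, and 72.9% and 9.59% a Comp UMI. Without thinning these shares were 39.9% and 8.90% for Mmp13 and 95.4% and 51.6% for Comp. For background, among the 15 cultured cells with at least 10 UMIs of haematopoietic genes (median 61920 UMIs per cell), 1 of which was a member, 1 had a Mmp13 UMI and 1 a Comp UMI at the fixed depth (6.67% each, 0.169% to 31.9%). With 15 cells this interval is wide: the shares of the other cells for both genes and the members' own Mmp13 share lie within it, and only the members' Comp share lies above it. The shares within it are not read as expression. Summed counts were 23830841 UMIs in members and 305083798 in the other cells, so a count of 3 corresponds to 0.126 and 0.00983 CPM. The libraries held 137359014 (primary) and 336427977 (cultured) UMIs over all deposited barcodes and shared 32 barcode sequences, 2 of them members' barcodes found in the primary library.

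Across the 8798 other genes with at least 10 CPM in members or other cells, 551 (6.26%) were higher in members by 1.5-fold or more and 295 (3.35%) lower, 9.62% in either direction, with a median log2 ratio of 0.05. At 2-fold, 235 (2.67%) were higher and 113 (1.28%) lower, 3.96% in either direction. With TMM scaling, which allows for a few genes taking a large share of the counts, the split was 444 higher and 369 lower (54.6% higher in place of 65.1%). With members taken as the top 10% within each 10% of the barcodes ordered by UMIs, 331 genes were higher and 213 lower, and all 24 genes named next were still past 1.5-fold. With the score taken from cells thinned to 5000 UMIs, 301 genes were higher and 101 lower, and 12 of the 12 higher but 8 of the 12 lower named genes were past 1.5-fold, without Cenpf (log2 ratio -0.35), Prc1 (-0.47), Mki67 (-0.53) and Cnn1 (-0.54). By rank among 3697 genes of at least 50 CPM, 24 genes are named, 12 on either side.

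Of the 12 genes with the highest ratios, Csmd1, which encodes a large membrane protein with complement control domains, led with 57.0 CPM (54.0 to 60.1) in members and 5.67 CPM (5.41 to 5.94) in other cells, a 10.1-fold difference. It was also unevenly held, since 10 members carried 47.5% of the members' Csmd1 counts. Sfrp4, a secreted Wnt antagonist, stood at 68.5 against 8.14 CPM (8.42-fold). Gdf10, a growth factor of the BMP family, stood at 101 against 13.4 CPM (7.55-fold) and was spread over more cells, with a UMI at the fixed depth in 31.3% of members and 5.92% of other cells. Hp, the haemoglobin-binding protein haptoglobin, had the highest level of the 12, 537 against 83.3 CPM (6.44-fold), with a UMI at the fixed depth in 54.6% and 16.7% of cells. Pdzrn4, a ubiquitin ligase-like protein, stood at 262 against 40.2 CPM. Gpx3, the secreted glutathione peroxidase, stood at 278 against 50.6 CPM. The fatty acid carrier Fabp4 (185 against 32.9 CPM), the syntaxin-binding Stxbp6 (185 against 34.9 CPM) and the neutrophil chemokine Cxcl5 (143 against 27.9 CPM) followed. Cxcl5 was also unevenly held, with 45.7% of the members' counts in 10 cells. Without thinning, 35.9% of members and 23.4% of other cells had a UMI of it. The matrix proteins Col14a1 (51.5 against 10.2 CPM) and Lum (55.5 against 11.8 CPM) and the little-known Prr16 (64.2 against 14.7 CPM) completed the list. All 12 were past 1.5-fold in the Mmp13-led and in the Comp-led members alike when each was set against the other cells. In the primary library the 12 genes had no common level: Lum stood at 798 CPM there, while Hp stood at 0.916 CPM and Cxcl5 at 0.0521 CPM.

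Of the 12 genes with the lowest ratios, 4 belong to cell division (Cenpf, Ube2c, Prc1 and Mki67). Angptl7, a secreted angiopoietin-like protein, was lowest with 8.73 CPM (7.58 to 10.0) in members and 50.5 CPM (49.7 to 51.3) in other cells, 5.79-fold higher in the latter. Hmcn1, an extracellular hemicentin, stood at 15.3 against 54.6 CPM. Igfbp2, a binding protein of insulin-like growth factors, had the highest level of these genes, 232 CPM (226 to 238) in members against 714 CPM (711 to 717). Cavin2, a caveolar coat protein, stood at 105 against 369 CPM, and Aldh1a1, which makes retinoic acid, at 154 against 394 CPM. The Wnt antagonist Sfrp2 stood at 28.7 against 76.2 CPM, opposite to Sfrp4, and the ligand Wnt10a at 28.5 against 74.6 CPM. Cnn1, a calponin of smooth muscle, stood at 24.4 against 63.1 CPM. With Mmp13 alone in the score, 2 of these 12 genes were past 1.5-fold, while all 12 of the higher genes were.

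**Figure D2:**
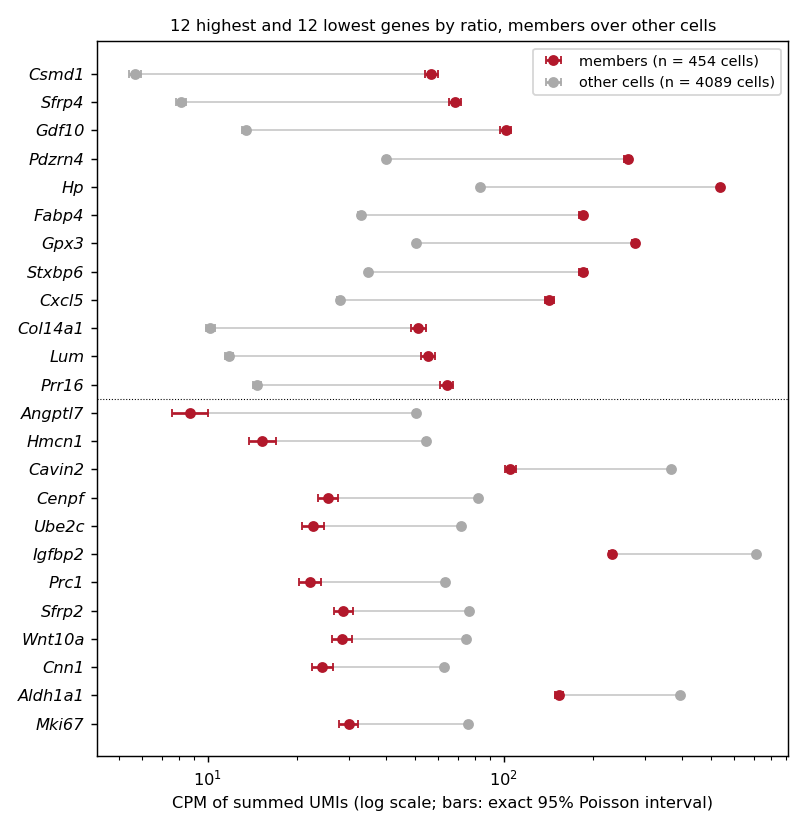
CPM of summed UMIs (x axis, log scale) of the 12 genes with the highest and the 12 with the lowest ratio of members over other cells, with 454 members in red, 4089 other cells in grey and bars for exact 95% Poisson intervals. The genes run from Csmd1 (57.0 against 5.67 CPM) to Angptl7 (8.73 against 50.5 CPM). They were picked by their ratios, so that their intervals lie apart follows from the choice.

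Among metalloproteinases and their inhibitors, the family of Mmp13, 2 of 10 compared genes were at least 1.5-fold higher and 2 lower, with a median log2 ratio of 0.18. For these and the lists below, the shares over all genes compared were 6.26% higher and 3.35% lower. Mmp3 (stromelysin 1, which can activate other metalloproteinases) stood at 45.1 against 6.80 CPM, with 62.5% of the members' counts in 10 cells. Mmp2 (gelatinase A) stood at 207 against 131 CPM. The inhibitors Timp2 (1449.5 against 2313 CPM) and Timp3 (843 against 1387 CPM) were the lower pair. Mmp14, the membrane metalloproteinase that activates Mmp2 and Mmp13, differed little (138 against 154 CPM), and the remaining 8 of the 18 listed genes, among them the other collagenase Mmp8 with 1 count in members, were under the minimum. In the plasmin system and other activators of Mmp13, 3 of 12 genes were higher (Mmp3, Mmp2 and the serine protease Htra1, 48.8 against 24.0 CPM) and 1, the plasminogen activator Plat, lower (14.9 against 22.5 CPM). Of 12 ADAMTS and ADAM proteases, Adamts9 (32.8 against 8.29 CPM) and Adamts12 (31.8 against 15.3 CPM), the latter known to cleave Comp, were higher, and the aggrecanase Adamts5 was lower (162 against 279 CPM).

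For the thrombospondins, the family of Comp, 2 of 3 compared genes were higher, Thbs2 (224 against 125 CPM) and Thbs3 (12.5 against 5.19 CPM). Thbs1 was the most abundant and differed less (2806 against 2441 CPM), and Thbs4 had no count in members. Among matrix proteins that bind or assemble with Comp, 5 of 12 were higher and none of the 12 lower (median log2 ratio 0.50). Matn4, a matrilin, had the highest ratio of these (32.0 against 3.68 CPM, log2 ratio 3.12, 2.99 to 3.26), followed by Col14a1, Fmod (161 against 47.3 CPM), Col3a1 (264 against 143 CPM) and Dcn (99.0 against 62.5 CPM). Fn1, fibronectin, was abundant in both (3052 against 2135 CPM, under 1.5-fold).

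Small leucine-rich proteoglycans, which bind collagen fibrils, had 5 of 8 genes higher and none of the 8 lower, with a median log2 ratio of 0.90. This depended on the score term. Against the other cells, 5 of the 8 were higher in Comp-led members (median 1.04) and 3 in Mmp13-led members (median 0.22). With Mmp13 alone in the score, 2 were higher (median 0.06). Lum, Fmod, Aspn (116 against 50.7 CPM), Omd (43.3 against 19.5 CPM) and Dcn were the 5. Bgn was the most abundant and differed less (1385 against 1189 CPM). Of 19 genes of fibrillar collagens and their modification, 5 were higher, namely Col3a1, the 3 chains of collagen VI (Col6a1 431 against 219.9 CPM, Col6a2 182 against 93.8 CPM, Col6a3 114 against 63.5 CPM) and the lysyl oxidase Loxl3 (176 against 85.8 CPM). None of these 19 was 1.5-fold lower, and Col1a1 stood at 606 against 714 CPM. Of 8 tenocyte and ligament genes 3 were higher, all of them matrix genes already named (Thbs2, Fmod and Col14a1), while the tendon regulator Scx stood at 53.7 against 75.4 CPM and the tendon marker Tnmd had 3 counts in members.

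Since Comp is abundant in cartilage and Mmp13 is made by late hypertrophic chondrocytes, chondrocyte genes were compared. Of 7 genes with at least 10 CPM, 3 were higher: Col11a1 (679 against 429 CPM), Hapln1, a link protein of aggrecan (15.6 against 6.76 CPM), and Cnmd, chondromodulin (15.5 against 5.98 CPM). The regulator Sox9 (97.0 against 80.1 CPM) and Col2a1 (668 against 477 CPM) were under 1.5-fold, and the other 7 listed genes were under the minimum, Acan with 6.04 against 2.23 CPM. Against the other cells, 5 of the 7 were higher in Comp-led members (median 0.68). In Mmp13-led members 1 was higher and 1 lower (median 0.11). In the primary library Col2a1 stood at 53561 CPM, so members remained far below the level of primary cells. Among hypertrophic chondrocyte genes, 5 of 7 were higher with a median log2 ratio of 0.82. These were Pth1r, the receptor of parathyroid hormone-related protein (38.6 against 5.46 CPM, 7.07-fold), the regulators Runx2 (187 against 106 CPM) and Runx3 (21.3 against 12.8 CPM), Spp1, osteopontin (12694 against 6096 CPM), and Ibsp, bone sialoprotein (20.5 against 0.0885 CPM). The defining marker Col10a1 was under the minimum in both (4.66 against 2.99 CPM), and Ihh had 2 counts in members. The osteoblast list shared its 3 higher genes (Runx2, Ibsp, Spp1) with this one, and Col1a1 and Sparc (2856 against 3164 CPM) were under 1.5-fold. Alpl (9.40 against 0.413 CPM) and Sp7 (6.13 against 0.269 CPM), genes of mineralising cells, were under the minimum but each 22.8-fold higher. They were singled out after their values were seen.

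The Ibsp signal came from few cells. Of its 515 counts in kept cultured cells, 94.8% were in members and 91.7% in 10 cells. At least 5 Ibsp UMIs were found in 12 of 454 members, all of them Mmp13-led, and in 1 of 4089 other cells, a limit set after the values were seen. These 12 members held from 5 to 119 Ibsp UMIs each, with a median of 12.5, and stood at 612 CPM of Ibsp, 1555 CPM of Mmp13, 89.7 CPM of Comp, 98.6 CPM of Alpl, 43.6 CPM of Sp7 and 273 CPM of Runx2, while no count of the late osteoblast markers Bglap and Dmp1 was found. Their Prrx1 level, a mesenchymal regulator, was 398 CPM, and they had no Tyrobp or Fcer1g count and 2 Lyz2 counts. In 102 other Mmp13-led members, without the member of at least 10 haematopoietic UMIs, Alpl stood at 17.8 CPM and Sp7 at 7.27 CPM. Runx2 differed less between the 12 and the 102 (273 against 221 CPM), and Col1a1 was near level (621 against 638 CPM). Spp1 was lower in the 12 (6739 against 14551 CPM).

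Of 16 AP-1 and other known regulators of Mmp13, 4 were higher: Fos (511 against 293 CPM), Fosb (204 against 115 CPM), Runx2 and Runx3. Jun stood just under the fold (380.1 against 253 CPM, log2 ratio 0.58), and Jund at 607 against 675 CPM. The median log2 ratio of the 16 was 0.43. Of 15 interleukin-1 and inflammatory genes, which include known inducers of Mmp13 and their targets, 9 were higher and 1 lower (median 0.83). Il1r1, the interleukin-1 receptor, stood at 163 against 76.5 CPM and Il1rn, its antagonist, at 20.1 against 3.77 CPM. The chemokines Cxcl1 (61.7 against 17.9 CPM), Cxcl5, Cxcl2, Ccl2 and Ccl7 and the acute phase gene Lcn2 (124 against 53.1 CPM) were also higher. Cxcl2 had a UMI in 2.20% of members and 3.18% of other cells, so its higher sum (20.1 against 2.46 CPM) lay in few cells. Of the members' counts, 88.2% for Saa3 and 45.7% for Cxcl5 lay in 10 cells. Il1rl1, the receptor of interleukin-33, was the lower gene (68.0 against 124 CPM), and Ptgs2, the inducible prostaglandin synthase, stood at 225 against 321 CPM.

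Signalling lists had lower medians than the AP-1 list (0.43) and the inflammatory list (0.83). In the TGF-beta list, 3 of 18 genes were higher: the targets Ccn2 (486 against 213 CPM) and Tgfbi (37.5 against 13.4 CPM) and the receptor Tgfbr1 (log2 ratio 0.67). The receptor Tgfbr2 was lower (173 against 324 CPM), and Smad7 (log2 ratio 0.35) and Skil (0.11) were under 1.5-fold. Of 11 BMP pathway genes, 3 were higher: Gdf10, the antagonist Grem1 (1839 against 1029 CPM) and the receptor Acvr1 (82.1 against 52.3 CPM). Of 9 Wnt and hedgehog genes, 3 were higher (Sfrp4, Wnt5a and Dkk3) and 1 lower (Sfrp2). Median log2 ratios of these lists were 0.32, 0.19 and 0.29, beside 0.05 over all genes compared. Of all genes compared, 6.26% were higher and 3.35% lower.

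The labels name bone marrow as the tissue, so genes of CXCL12-abundant reticular (CAR) and perivascular stroma were compared. Of 9 genes, 4 were higher and none of the 9 lower: the regulators Ebf1 (748 against 336 CPM) and Ebf3 (40.2 against 21.3 CPM), the receptor Pdgfrb (95.7 against 50.7 CPM) and the vessel-stabilising ligand Angpt1 (55.3 against 15.8 CPM). The chemokine Cxcl12 stood at 729 against 534 CPM and stem cell factor, Kitl, at 53.9 against 62.4 CPM, both under 1.5-fold. Of the top 10% of cells by Cxcl12, 60 (13.2%) were members, near the 9.99% of members among all kept cells. Adipocyte genes had the highest list median, 2.49, from 3 compared genes that were all higher: the regulator Pparg (254 against 60.7 CPM), Fabp4 and the lipase Lpl (25.01 against 2.71 CPM). The defining markers Adipoq and Plin1 were near 0, with 4 and 21 counts in members. Among progenitor surface genes, Alcam (127 against 74.2 CPM) and Eng (30.1 against 17.1 CPM) were higher and Cd44 (231 against 368 CPM), Nt5e (19.4 against 30.8 CPM) and Nes (7.81 against 17.8 CPM) lower.

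Cell division genes were lower together. All 23 compared G2M phase genes were at least 1.5-fold lower in members, with a median log2 ratio of -1.24 and a sum of 363 against 882 CPM. This count depended on the choice of members: 22 of the 23 were lower with members taken within each 10% of barcodes ordered by UMIs (median -1.14), 11 with the score from thinned cells (median -0.58) and 5 with Mmp13 alone in the score (median -0.50). Top2a, which untangles DNA, stood at 32.5 against 76.4 CPM and Mki67 at 29.96 against 75.7 CPM. Of 18 S phase genes 5 were lower and 0 higher (median -0.41). At 5000 UMIs per cell, 43 of 454 members (9.47%, 6.94% to 12.5%) and 20.9% of other cells (19.6% to 22.2%) had at least 5 UMIs of either list. Without the cells that met this limit, 10 of the 23 G2M phase genes (median -0.45) and 0 of the 18 S phase genes (median -0.02) were past 1.5-fold lower. Of 9 contractile genes, 7 were lower (median -0.78), among them Acta2, smooth muscle actin (656 against 1270.1 CPM), and Tagln, transgelin (576 against 1338 CPM), and Mylk was higher (22.4 against 13.4 CPM). Of the 9, 4 were lower with members taken within each 10% of barcodes ordered by UMIs, 2 with the score from thinned cells and 2 with Mmp13 alone. The top 10% of cells by Acta2 and Tagln shared 12 cells (2.64%) with the members, and the top 10% by Il1rl1 and Hmcn1 shared 10 (2.20%). Members made up 9.99% of all kept cells.

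Other lists were near the median of all genes. None of 16 genes of the endoplasmic reticulum and secretion and none of 13 glycolysis and hypoxia genes was past 1.5-fold, with medians of -0.08 and 0.00. Of 15 cell cycle inhibitor and p53 target genes, Cdkn1c (60.6 against 30.9 CPM) and Btg2 (411 against 273 CPM) were higher and Ckap2 lower. Markers of other cell types were low. The 9 endothelial genes summed to 18.3 against 15.9 CPM, with Cdh5, Tie1 and Emcn at 0 in members. The 6 pericyte genes summed to 39.6 against 47.3 CPM, mostly Cspg4 (29.2 against 41.6 CPM). Under the minimum, Abcc9 (2.85 against 0.528 CPM), Rgs5 (1.43 against 0.459 CPM) and Kcnj8 (1.09 against 0.216 CPM) went the other way. Notch3 differed little (5.04 against 4.45 CPM), and Higd1b was at 0 in members. The 8 skeletal muscle genes summed to 1.68 against 0.901 CPM with Pax7 at 0, and the 6 Schwann cell genes to 33.2 against 35.7 CPM, mostly S100b, with Sox10 at 0. The 10 haematopoietic genes summed to 47.2 against 32.2 CPM, from 145 CPM in Mmp13-led and 9.80 CPM in Comp-led members. Of the members' 506 Lyz2 counts, 414 came from 1 member, which also held 17 Mmp13 UMIs. Without cells of at least 10 haematopoietic UMIs, 545 genes were higher and 293 lower.

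**Figure D3:**
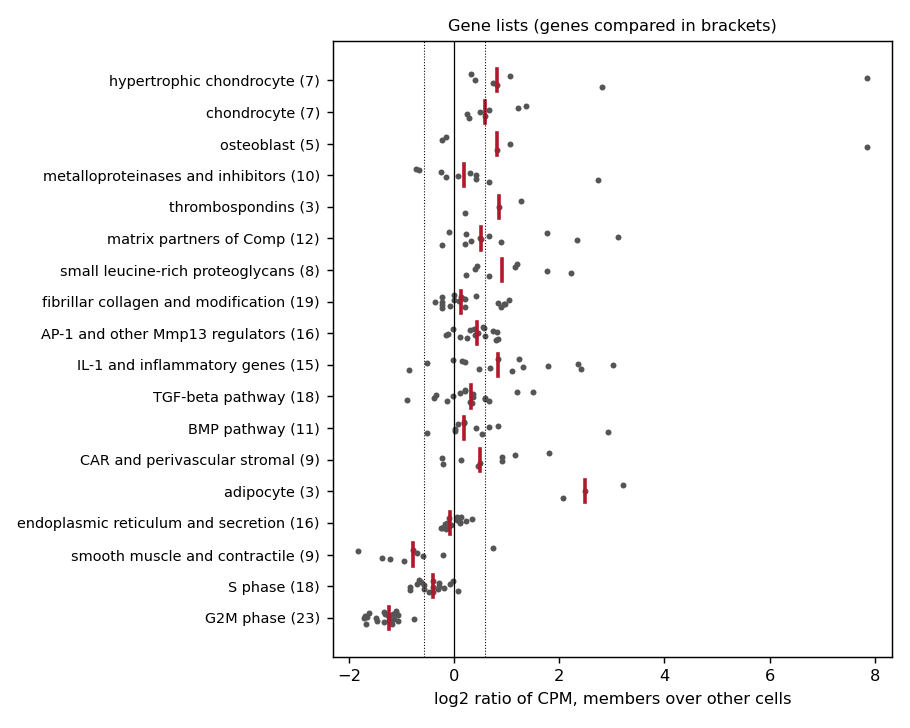
Log2 ratios of CPM, members over other cells (x axis), for the compared genes of 18 lists (rows, genes compared in brackets), with a point for each gene, a red bar for the list median and dotted lines at 1.5-fold in either direction. The G2M phase genes lie at the left with a median of -1.24, and the adipocyte genes have the highest median, 2.49, from 3 genes.

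The differences were graded over the higher scores and were not limited to the members. In the next 454 cells by score, with 8.49 CPM of Mmp13 and 116 CPM of Comp, Hp stood at 230.3 CPM, in the 454 after them at 153 CPM and in the 1831 cells without a UMI of either gene at 57.5 CPM. Pdzrn4 went from 262 CPM in members over 143 and 68.5 CPM to 19.6 CPM in the cells without a UMI. Igfbp2 went the other way, from 232 over 412 and 636 to 823 CPM, and the G2M sum from 363 over 466 and 657 to 927 CPM. Ibsp was an exception, at 20.5 CPM in members and at most 0.493 CPM in any other group of cells. Depth moved with the score too, and it enters the score itself, which divides by a barcode's UMIs. Medians were 46794 UMIs in members and 50798.5, 65100, 73536 and 73105.5 UMIs in the 4 following groups. They were 110884 UMIs in the other cells with a UMI and 59377 UMIs in those with none. The part of depth in the gradient was not tested.

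**Figure D4:**
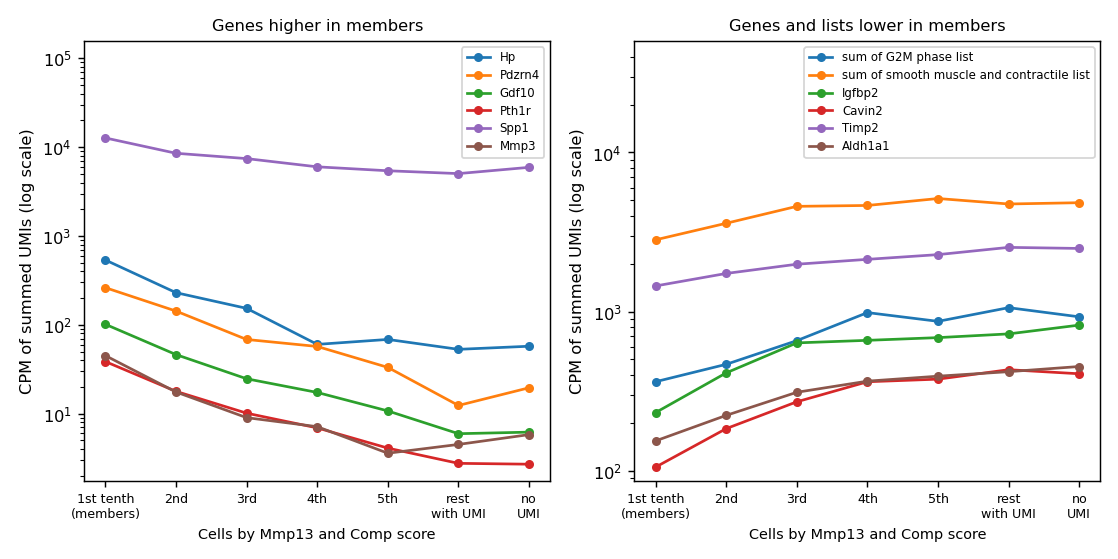
CPM of summed UMIs (y axes, log scale) of 6 genes higher in members (left) and of 4 genes and 2 gene lists lower in members (right) over cells ordered by the Mmp13 and Comp score, from the members through 4 further groups of 454 cells to the other cells with a UMI and the 1831 cells with none. The values go on changing among the groups of cells outside the members, as for Pdzrn4 (262, 143 and 68.5 CPM in the first 3 groups).

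Members lay close to each other in genes that the rule did not use. In 10 principal components of 2000 variable genes without Mmp13 and Comp, 39.0% of the 20 nearest cells of a member were members on average, against 5.99% for other cells, where 9.99% of all cells were members. The share was 41.0% for Mmp13-led and 38.4% for Comp-led members, and 28 members had no member among their neighbours. Of 7 clusters made from the same graph, cluster 3 held 286 members, 63.0% of all, and members made up 35.4% of its 808 cells (32.1% to 38.8%). Its leading genes were Sfrp4, Gdf10, Prr16, Pdzrn4, Gprin3 and Stxbp6. Members were few in cluster 4, led by cell division genes (24 of 696 cells), in cluster 5, led by Il1rl1 and Hmcn1 (3 of 508), and in cluster 6, led by Nr5a2 and Barx1 (2 of 266). Mmp13 and Comp themselves stood at 119.7 and 180.3 CPM in cluster 3 and at 2.24 and 8.86 CPM in cluster 5.

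**Figure D5:**
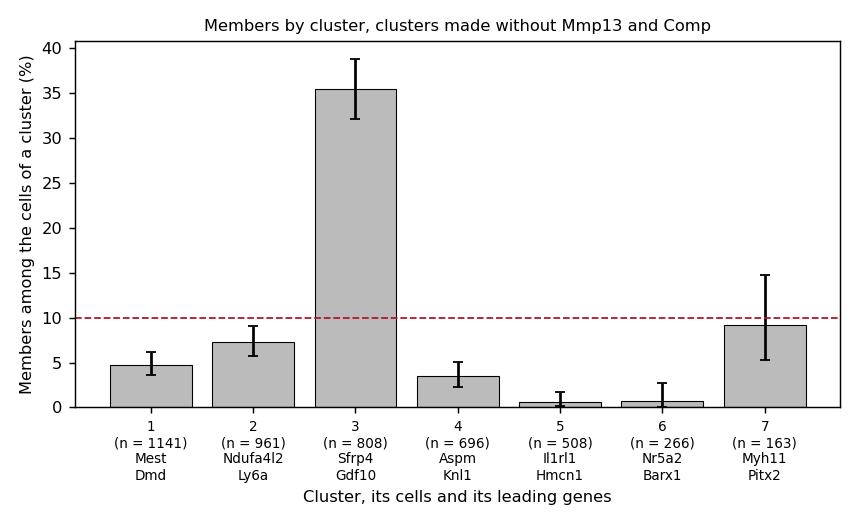
Members as a percentage of the cells of each of 7 clusters (y axis), with each cluster's cells and first leading genes below it, bars for exact 95% binomial intervals and a dashed line at the 10% that the rule takes. Cluster 3 stands at 35.4%, and clusters 5 and 6 are under 1%.

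Within cluster 3, members were compared with the cluster's own other cells, an alternative chosen after seeing the data. Of 8850 genes, 144 were then higher and 138 lower. The genes of high ratio kept their direction, and 11 of the 12 were still past 1.5-fold, with log2 ratios from 0.76 for Col14a1 to 1.45 for Sfrp4, while Prr16 stood at 0.38. All 3 adipocyte genes were past 1.5-fold there (median 1.35), and so were Ibsp (7.16), Cxcl2 (2.45), Mmp3 (2.05), Matn4 (1.62) and Pth1r (1.29). Other differences were lost in part or in whole. Of the 8 small leucine-rich proteoglycans 2 were past 1.5-fold higher (median 0.40). Of the 15 interleukin-1 and inflammatory genes 6 were past 1.5-fold higher. Their median was 0.18, against 0.83 in the comparison of all members, and Il1r1 stood at 0.18. Of the 23 G2M phase genes 4 were past 1.5-fold, of the 9 contractile genes none was lower, Runx2 stood at 0.06, Ebf1 at 0.13 and Fos at 0.28. Igfbp2 (-1.51), Hmcn1 (-1.60) and Sfrp2 (-1.08) were still lower, while Angptl7 was level (0.01).

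The Mmp13-led and Comp-led members were near each other in most genes. Of 8785 genes, 146 (1.66%) were higher in Mmp13-led members by 1.5-fold or more and 195 (2.22%) lower. Beside Ibsp (73.0 against 0.406 CPM) and Lyz2, which lay in few cells, Csmd1 (132 against 28.3 CPM), Galnt13 (59.6 against 17.1 CPM), the fatty acid carrier Fabp7 (51.7 against 15.9 CPM), Htra1 (81.3 against 36.4 CPM) and Sfrp4 (114 against 51.2 CPM) were higher in Mmp13-led members. The growth factors Ptn, pleiotrophin (16.4 against 174 CPM), and Igf1 (42.3 against 133 CPM), the glutamate transporter Slc1a3 (15.8 against 60.7 CPM), Sncg (80.7 against 237 CPM) and 3 leucine-rich proteoglycans, Omd (17.9 against 52.97 CPM), Aspn (49.0 against 142 CPM) and Ogn (477 against 1055 CPM), were higher in Comp-led members. Cnmd stood at 2.73 CPM in Mmp13-led and 20.4 CPM in Comp-led members, with 5.98 CPM in the other cells. Galnt13, Fabp7, Ptn, Igf1, Slc1a3 and Sncg were chosen after their values were seen.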

How the data were processed

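Droplet-based single-cell RNA sequencing of transcript ends gave 1 primary and 1 cultured CDSC library. Per the study's methods and the submitters' processing notes, the authors used Cell Ranger 7.0.0 with GRCm38 (mm10), and they deposited UMI counts for each gene in each barcode, which are whole numbers without normalisation. The annotation release was not given in the sources used here, nor were the study's own cell limits. Gene names are those of the files, and where a symbol stood for several identifiers it was kept for the one with most cultured counts.

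The members and the 30 gene lists (389 genes) were chosen with earlier results of these data known. Barcodes were filtered and scored as described in the report with Python 3.11.15, NumPy 2.4.6 and SciPy 1.17.1. Of the barcodes, 10959 of 11896 primary and 4543 of 10798 cultured ones passed. Doublets were not removed, since the rule does not, and leaving out the 10% of barcodes with the most UMIs was tried in its place. Counts were summed over cells and scaled to CPM. Log2 ratios had counts under 3 raised to 3 and exact conditional intervals, and genes with at least 10 CPM in either group were compared. The genes named are Mmp13, Comp, the 12 highest and 12 lowest by ratio among genes with at least 50 CPM in either group without mitochondrial and ribosomal protein genes, and list members with at least 10 CPM. Cells were thinned to 5000 UMIs for shares of cells. Clusters came from leidenalg 0.10.2 at its fixed seed, and TMM factors from edgeR 4.0.16. No test was run, because cells of 1 library are not replicates. The values of 1 listed gene are not reported here, though it counts in its list. The scripts were tested on simulated data. Members were shallower than the other cells, and several alternatives address depth. Differences between animals and cultures could not be estimated. Promoters came from RefSeq (GRCm38.p6), where Mmp13 and Ibsp matched, and gene coordinates from GENCODE on GRCm38.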

Additional observations from a re-analysis of the deposited data

How the results depend on the processing

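With 1 library per group, differences between cultures could not be estimated, and no replicate could be left out. No paired analysis was possible because each group held 1 library and the comparison came from no test. The main counts of 551 genes higher and 295 lower became 130 and 22 with Mmp13 alone in the score, 301 and 101 with the score on thinned cells, 1148 and 627 at a minimum of 1 CPM, 241 and 100 at 50 CPM, 235 and 113 at 2-fold, and 144 and 138 within cluster 3. The higher count was 331 with members taken within each 10% of barcodes ordered by UMIs. The share of neighbours that were members was 40.8% over 10 neighbours and 48.6% for the top 20% of cells. The cycling share of members was 19.8% at 3 UMIs (other cells 30.4%), 5.73% at 10 UMIs (14.6%) and 81.9% without thinning (90.8%). The cause of these shifts was not tested.

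Among genes and lists past 1.5-fold, these turned direction, given as log2 ratios. Within cluster 3 the list medians became -0.090 for thrombospondins, 0.094 for contractile genes and -2.29 for haematopoietic genes, the last being Lyz2 alone. For those G2M phase genes with at least 10 CPM there the median became 0.033, though -0.34 over the same 23 G2M genes as before. Single genes there were Angptl7 0.0098, Prc1 0.054, Thbs2 -0.090, Saa3 -0.42, Tgfbr1 -0.049, Acta2 0.10, Myl9 0.094, Actg2 0.75, Mcm5 0.18, Clspn 0.29, Cdk1 0.019, Kif20b 0.068, Kif23 0.15, Cdc20 0.25, Anln 0.046 and Lyz2 -2.29. The haematopoietic median was the value of Lyz2 alone, at -1.75 with Comp alone in the score and at -1.40 for Comp-led members. For Mmp13-led members Cnmd stood at -1.13, Omd at -0.13 and Aspn at -0.050, and with Mmp13 alone Aspn at -0.093 and Cdkn1c at -0.092. Saa3 stood at -0.027 without the barcodes with the most UMIs and at -0.059 with each cell weighing the same. Without cycling cells Cenpe stood at 0.0042, Cdk1 at 0.13, Kif20b and Cdc20 at 0.37 and Ckap2 at 0.14. Of the 164 named and listed genes under 1.5-fold, 72 changed sign within cluster 3, 25 for Mmp13-led members, 22 with Mmp13 alone and from 0 to 19 under each of the others. The alternatives that took members by the larger score term, that kept to cluster 3 and that left out cells of few mitochondrial or many haematopoietic UMIs were chosen after seeing the data.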
